A study of Mus musculus with 22 samples.

Results

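Intercalated cells are the acid- and base-transporting cells scattered along the connecting tubule and collecting duct, and 10 of their genes were followed here through cisplatin injury and its treatment with KW6002. The genes are Atp6v1b1, Atp6v0d2, Atp6v1g3, Slc4a1, Slc26a4, Slc4a9, Foxi1, Rhcg, Hmx2 and Atp4a. They were chosen by symbol, and all 10 were found among the 32858 genes of the count table. RNA-Seq was performed on kidneys of male C57Bl6/J mice aged 8 to 10 weeks, with 1 library per mouse. The vehicle group (n = 5) received the carrier of DMSO, cremophor and saline. The KW6002 group (n = 6) received KW6002 (istradefylline), an adenosine receptor antagonist, intraperitoneally at 3 mg/kg every day from day -5 to day 7. The cisplatin group (n = 5) received 6 daily intraperitoneal injections of cisplatin at 3 mg/kg from day 0, and the cotreated group (n = 6) received both drugs on these schedules. Mice treated with cisplatin were killed 72 hours after the last injection, and no group carried a genetic change.

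Type A intercalated cells pump protons into the urine with an apical vacuolar proton ATPase (V-ATPase) and return bicarbonate to the blood through the basolateral anion exchanger AE1. Type B cells secrete bicarbonate through the apical exchanger pendrin and hold the V-ATPase on the opposite side. The forkhead transcription factor Foxi1 is needed for both types to form and for several of their transporter genes to be expressed.

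Totals ran from 26471762 to 40510754 counts per kidney, with a median of 32721214.5. Levels are given as CPM, the count of a gene relative to its library total, after TMM scaling between libraries. The labels number 3 vehicle and 3 KW6002 mice in the 300s and all others in the 500s, and what the series of numbers stands for is not given in the sources used here. Differences are log2 fold changes with their SE, and a change was called at an adjusted p below 0.05 in edgeR's quasi-likelihood test over 17131 genes. In bulk kidney RNA, fewer intercalated cells and less RNA per cell cannot be told apart.

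All 10 genes are protein coding, and their positions are those of GENCODE M21 on mm10. The proton pump genes lie at chr6:83742990-83758855 (Atp6v1b1, plus strand), chr4:19876841-19922605 (Atp6v0d2, minus) and chr1:138273738-138289462 (Atp6v1g3, plus). The exchanger genes Slc4a1 and Slc26a4 lie at chr11:102348824-102366203 (Slc4a1, minus) and chr12:31519827-31559969 (Slc26a4, minus). Foxi1 lies at chr11:34204338-34208089 (minus), Rhcg at chr7:79593363-79617657 (minus), Hmx2 at chr7:131548773-131558014 (plus) and Atp4a at chr7:30712209-30725534 (plus). Rhcg overlaps Gm45170 on its own strand and Hmx2 overlaps Fgfr2 on the other strand, in both cases without a shared exon.

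RefSeq promoters (GRCm38.p6) were matched to 7 of the 10 genes. Slc4a1 and Atp6v0d2 had no match. Slc4a9 was left out of the matching, so whether it has a match was not tested. Because Foxi1 is a forkhead factor, the bases before each start were searched on both strands for the forkhead core TAAACA and its variant TAAATA. The upstream windows of 4 genes that behaved differently under cisplatin are printed 5′ to 3′ on the gene's own strand, with any forkhead match in capitals. Atp6v1b1 (chr6:83742767-83742989, plus) and Slc26a4 (chr12:31559985-31560234, minus) are transporter genes that fell. Atp4a (chr7:30711959-30712208, plus) fell most of all 10 genes, and Atp6v1g3 (chr1:138273488-138273737, plus) is a pump gene that did not pass the test.
Atp6v1b1: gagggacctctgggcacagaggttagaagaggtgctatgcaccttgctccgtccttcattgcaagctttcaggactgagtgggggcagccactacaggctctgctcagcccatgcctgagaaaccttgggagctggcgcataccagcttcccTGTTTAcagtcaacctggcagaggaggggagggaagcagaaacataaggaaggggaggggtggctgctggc
Slc26a4: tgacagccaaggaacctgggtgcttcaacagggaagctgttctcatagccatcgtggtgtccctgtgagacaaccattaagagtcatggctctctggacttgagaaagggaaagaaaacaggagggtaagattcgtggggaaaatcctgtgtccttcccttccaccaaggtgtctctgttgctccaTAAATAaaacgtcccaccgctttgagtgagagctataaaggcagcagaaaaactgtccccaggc
Atp4a: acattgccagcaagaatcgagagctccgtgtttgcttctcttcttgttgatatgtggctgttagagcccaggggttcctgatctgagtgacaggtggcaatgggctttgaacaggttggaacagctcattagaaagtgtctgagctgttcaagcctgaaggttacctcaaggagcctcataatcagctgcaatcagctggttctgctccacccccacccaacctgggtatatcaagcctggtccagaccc
Atp6v1g3: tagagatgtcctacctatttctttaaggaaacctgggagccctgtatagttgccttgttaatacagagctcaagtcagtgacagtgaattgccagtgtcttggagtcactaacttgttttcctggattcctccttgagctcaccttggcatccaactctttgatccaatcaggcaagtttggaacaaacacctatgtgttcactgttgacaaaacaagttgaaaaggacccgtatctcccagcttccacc
The match of Atp6v1b1 starts 71 bases from the end of its window and reads TGTTTA, the core on the opposite strand. The match of Slc26a4 starts 64 bases from the end and is the variant, followed by a TATAAA box that starts 31 bases from the end and does not overlap it. Among the 7 genes searched, 3 held a forkhead match, with Hmx2 as the third (variant, 70 bases from the end of chr7:131548507-131548756, also followed by TATAAA, 29 bases from the end), while the windows of Atp6v1g3, Foxi1, Rhcg and Atp4a held neither form of these letters. Over 32536 promoter windows of 250 bases, 22.108% held either form and 12.313% held TATAAA, so a match by itself is common. The windows were also searched for CCAAT (in 33.809% of all windows), CACGTG (6.036%) and GTTAAT (6.467%), each on both strands. CCAAT was present in Atp6v1g3, in Foxi1 and before a second start of Hmx2, GTTAAT in Atp6v1g3 alone, and CACGTG in none of these windows.

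In vehicle kidneys, levels of the 10 genes per kilobase of exon spanned from 56.2 ± 3.46 CPM per kb (SD, n = 5) for Rhcg, an ammonia channel that is also found in neighbouring connecting tubule and principal cells, to 3.70 ± 0.810 for the homeobox gene Hmx2. Between these lay Atp6v1b1 (38.1), Atp6v1g3 (33.8), Slc26a4 (32.5), Atp6v0d2 (20.3), Slc4a9 (just below it), Foxi1 (16.7), Slc4a1 (12.8) and Atp4a (12.6) in CPM per kb. Of the 9 neighbouring pairs in this order, only Rhcg and Atp6v1b1, Slc26a4 and Atp6v0d2, and Atp4a and Hmx2 had ranges over vehicle kidneys that did not overlap.

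Cisplatin lowered 8 of the 10 intercalated cell genes, and none rose. In the same comparison 35.9% of all tested genes were lower and 34.6% were higher, and the median log2 fold change was -1.48 over the 10 genes against -0.01 over all genes. The falls were unequal. Atp4a, Slc4a1, Hmx2, Rhcg, Slc26a4, Atp6v1b1 and Slc4a9 fell without overlap between the groups, Foxi1 fell slightly, and the proton pump genes Atp6v0d2 and Atp6v1g3 did not pass the test. Over all tested genes, 27.9% were lower and 27.4% higher without overlap. Among mice of the 500s alone, which leaves 2 vehicle kidneys, the falls of the first 7 genes ranged from -3.42 (Atp4a) to -1.03 (Slc4a9) on the log2 scale and all passed.

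**Figure D1:**
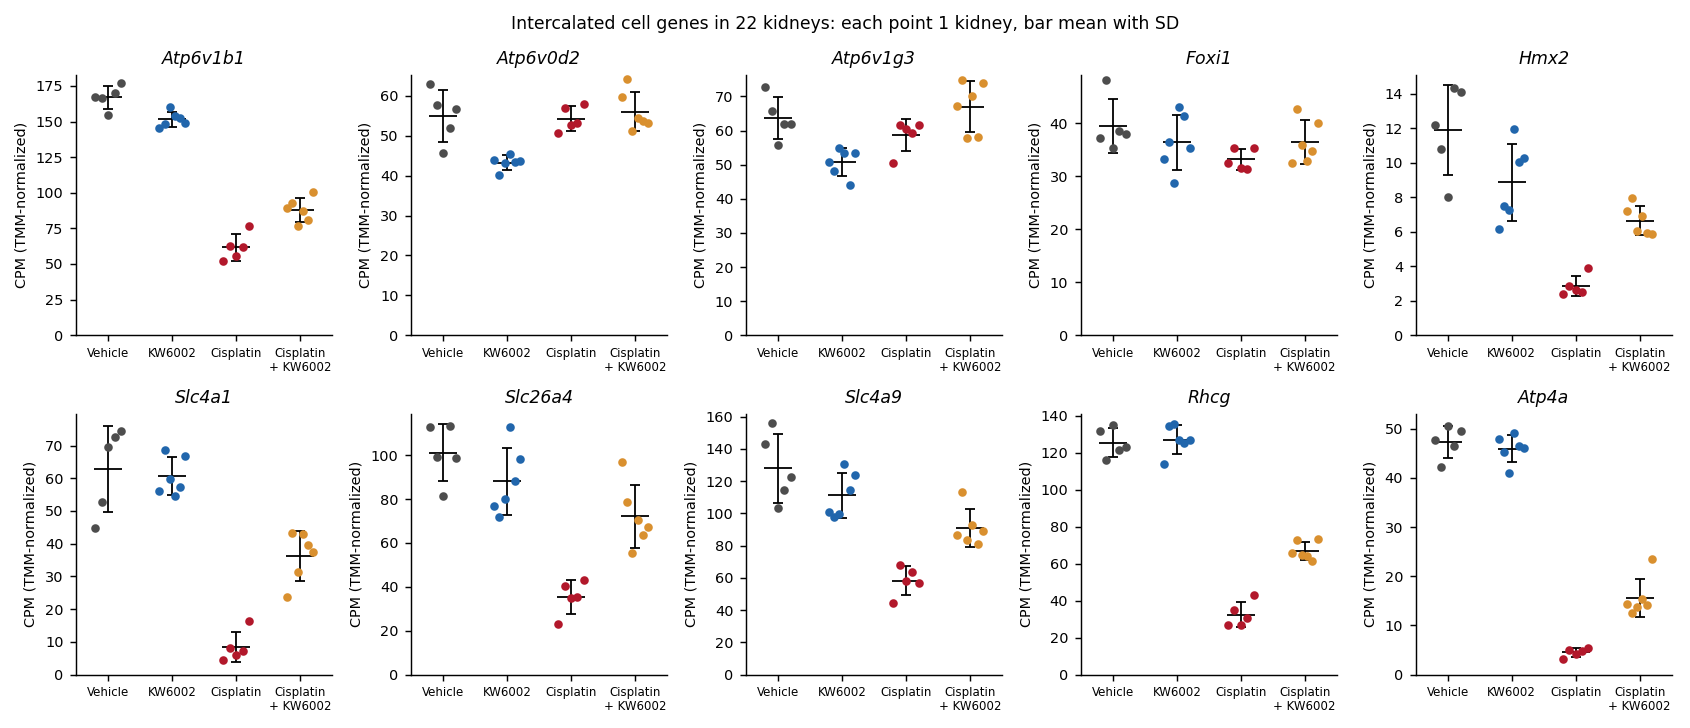
CPM of the 10 intercalated cell genes (y axis from 0, TMM-normalized) in each of 22 kidneys by group, with the group mean and SD as bars. Atp4a, Slc4a1, Hmx2 and Rhcg lie far below vehicle in the cisplatin kidneys, whereas Atp6v0d2, Atp6v1g3 and Foxi1 stay close to it.

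The V-ATPase is built from a cytosolic V1 part that splits ATP and a membrane V0 part that carries protons, and several subunits exist in a form enriched in intercalated cells. Atp6v1b1 encodes B1, the V1 subunit whose loss causes distal renal tubular acidosis. It measured 167, 167, 155, 170 and 177 CPM in vehicle kidneys 1 to 5, and 52.1, 62.3, 55.5, 62.1 and 76.4 CPM in cisplatin kidneys 1 to 5. The highest cisplatin kidney lay well below the lowest vehicle kidney, and the log2 fold change was -1.44 ± 0.0811 (adjusted p = 3.95e-13).

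Atp6v0d2 encodes the d2 subunit of the V0 part, which osteoclasts and macrophages also use. It measured 63.0, 57.8, 45.8, 51.9 and 56.8 CPM in vehicle kidneys and 50.6, 56.9, 52.8, 53.3 and 58.0 CPM in cisplatin kidneys. The groups overlapped almost wholly, and the log2 fold change was -0.02 with a 95% interval from -0.17 to 0.13 (adjusted p = 0.816). Atp6v1g3 encodes the G3 subunit of the V1 part and lay between 55.7 and 72.9 CPM in vehicle and between 50.6 and 61.6 CPM in cisplatin kidneys. Its log2 fold change was -0.12, with a 95% interval from -0.29 to 0.05 (adjusted p = 0.204), so a fall of the size seen for Atp6v1b1 lay outside the interval of either gene. Scaling by library size alone moved the median of all genes up by 0.22 in this comparison. The values were then 0.20 for Atp6v0d2 (edgeR adjusted p = 0.0201) and 0.10 for Atp6v1g3. In that setting the 10 genes split into 7 lower and 1 higher, beside 4244 lower and 8157 higher among all tested genes. Macrophage and osteoclast markers, measured as a list of 15 genes, summed to 242 to 563 CPM in vehicle and 314 to 439 CPM in cisplatin kidneys. Of these genes, 2 rose and 2 fell among 13 tested, and their part in the Atp6v0d2 level was not tested.

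The unequal change of the pump genes stood also in ratios within each kidney, which do not depend on scaling between libraries. Atp6v1b1 was set against Atp6v1b2, which encodes B2, the B subunit used in most cells. The counts of Atp6v1b1 per count of Atp6v1b2 ran from 0.341 to 0.390 in vehicle and from 0.143 to 0.236 in cisplatin kidneys. This ratio fell by 1.08 on the log2 scale (2-sided exact permutation test, p = 0.00794, the smallest this design allows, adjusted over 24 tests 0.0231). The ratio of Atp6v0d2 to its ubiquitous partner Atp6v0d1 differed by 0.22 (exact permutation test, p = 0.119), and that of Atp6v1g3 to Atp6v1g1 differed by 0.14 (exact permutation test, p = 0.0952). The latter pair of ratios did not pass.

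Among 20 of 21 other V-ATPase subunit genes that could be tested, cisplatin lowered 16 and raised 2, with a median log2 fold change of -0.33. Atp6v1e2, the remaining one, had at most 5 counts in any kidney. Atp6v1c2, a C2 subunit gene, fell by 1.16 on the log2 scale (edgeR adjusted p = 1.52e-10), the only other subunit gene of this list to fall beyond 1. Atp6v0a1, which encodes the a1 form of the large membrane subunit, rose from 71.6 ± 3.02 to 149 ± 17.4 CPM (log2 fold change 1.06, adjusted p = 1.34e-10). Atp6v0a4, the a4 form that is mutated in distal renal tubular acidosis, measured 381 ± 25.8 CPM in vehicle and 370 ± 56.5 CPM in cisplatin kidneys and did not pass (log2 fold change -0.04, adjusted p = 0.703). Of the paralogs of the pump genes, Atp6v1b2 (-0.37), Atp6v1g1 (-0.26) and Atp6v0d1 (-0.23) fell slightly on the log2 scale.

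**Figure D2:**
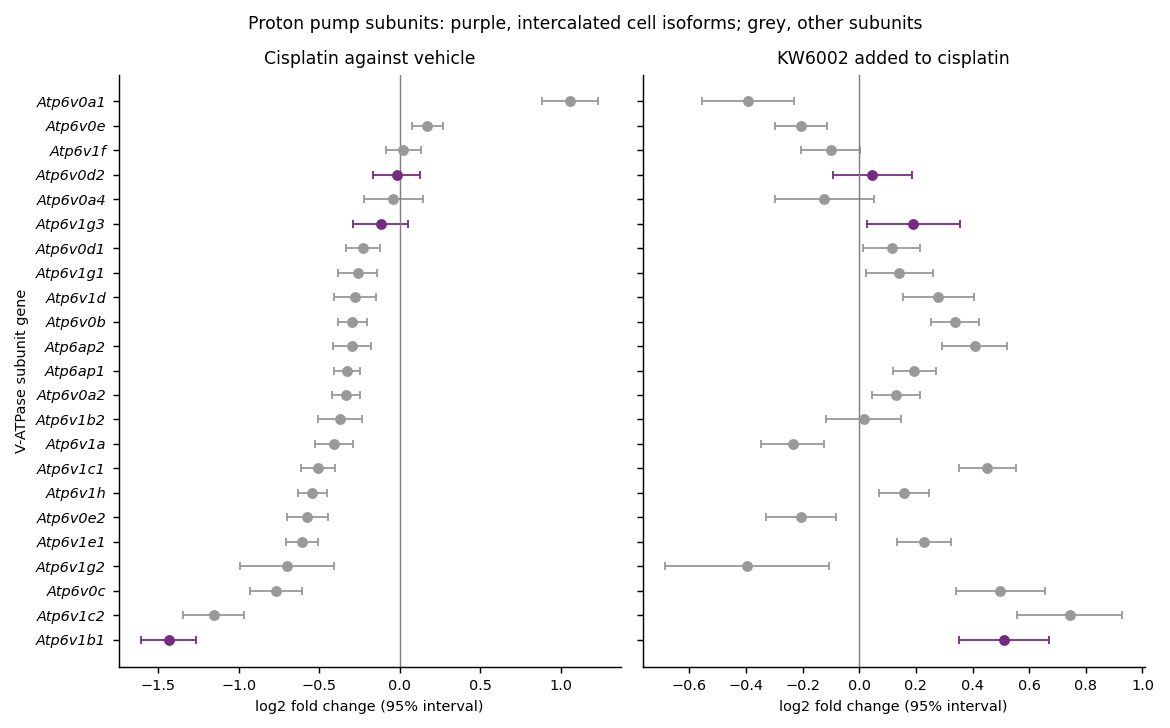
Log2 fold change with 95% interval (x axis) of the V-ATPase subunit genes (y axis), for cisplatin against vehicle on the left and for KW6002 added to cisplatin on the right, with Atp6v1b1, Atp6v0d2 and Atp6v1g3 in purple. On the left Atp6v1b1 is the lowest at -1.44, Atp6v0a1 the highest at 1.06, and Atp6v0d2 and Atp6v1g3 have intervals that include 0.

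Slc4a1 encodes AE1, the chloride-bicarbonate exchanger of type A cells, and in a different form also the band 3 protein of red cells. It measured 44.8, 52.7, 69.6, 72.6 and 74.4 CPM in vehicle kidneys and 4.48, 8.09, 5.86, 7.12 and 16.4 CPM in cisplatin kidneys. Every cisplatin kidney was far below every vehicle kidney, and replicate 5 was the highest of the cisplatin group. The log2 fold change was -2.91 ± 0.247 (adjusted p = 4.32e-10), and -3.30 without cisplatin replicate 5.

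Because red cells and their precursors also carry Slc4a1, globin RNA was read beside it. The 4 adult globin genes summed to between 62.2 and 389 CPM in vehicle and between 70.0 and 338 CPM in KW6002 kidneys. The sum was between 0.0266 and 0.201 CPM in cisplatin kidneys and between 0.115 and 0.471 CPM in cotreated kidneys. Among vehicle kidneys, replicates 1 and 2 had the most globin RNA (278 and 389 CPM) and the least Slc4a1 (44.8 and 52.7 CPM). Among KW6002 kidneys, by contrast, replicate 2 was highest in both (338 CPM of globin RNA and 68.5 CPM of Slc4a1) and replicate 4 lowest in both (70.0 and 54.5 CPM). The cotreated kidneys, with almost no globin RNA, held 36.3 ± 7.65 CPM of Slc4a1. Of 15 red cell markers 8 could be tested, of which 5 fell and 1 rose with cisplatin, and Rhag, Rhd and Tspo2 had at most 3 counts in every kidney. The red cell share of the Slc4a1 fall was not tested.

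**Figure D3:**
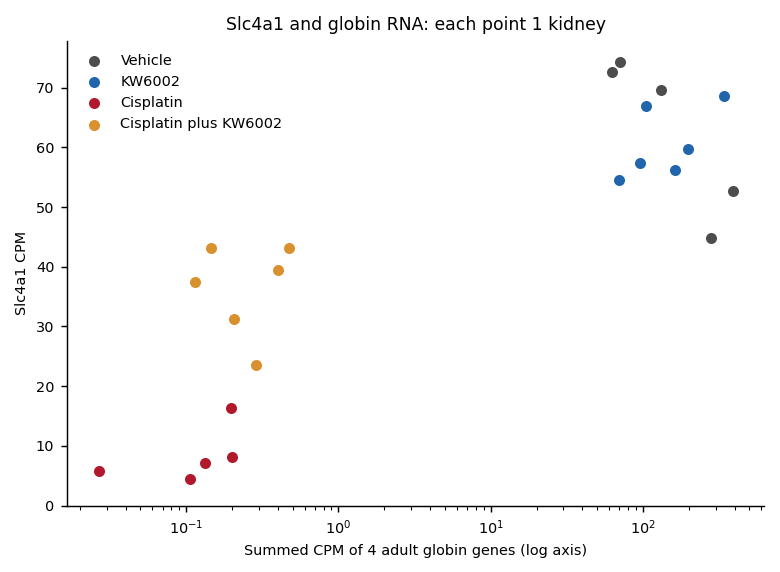
Slc4a1 CPM (y axis) against the summed CPM of 4 adult globin genes (x axis, log scale), with 1 point per kidney coloured by group. Cisplatin and cotreated kidneys share globin sums of at most 0.471 CPM but lie apart in Slc4a1, at 4.48 to 16.4 and 23.6 to 43.2 CPM.

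Slc26a4 encodes pendrin, the apical chloride-bicarbonate exchanger of type B cells. It measured 113, 99.4, 81.3, 113 and 98.9 CPM in vehicle kidneys and 23.1, 40.5, 35.0, 35.2 and 43.0 CPM in cisplatin kidneys. The groups lay apart, and the log2 fold change was -1.52 ± 0.158 (adjusted p = 1.24e-08). Slc4a9 encodes AE4, a basolateral transporter of type B cells, and fell from 128 ± 21.4 to 58.4 ± 8.95 CPM, with vehicle kidneys at 103 or more and cisplatin kidneys at 68.1 or less. Its log2 fold change was -1.13 ± 0.122 (adjusted p = 2.05e-08). Slc4a2, the widely expressed paralog of the SLC4 exchanger genes, fell slightly, from 76.8 ± 4.78 to 63.2 ± 2.84 CPM (log2 fold change -0.28).

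Slc26a4 and Slc4a1, a single gene each of type B and type A cells, were compared as their ratio in each kidney. Other genes of these types were not compared in this way. Slc4a1 is also a red cell gene, and the red cell part of this ratio was not tested. The ratio ran from 1.17 to 2.52 in vehicle and from 2.62 to 5.95 in cisplatin kidneys, a rise of 1.48 on the log2 scale (2-sided exact permutation test, p = 0.00794, adjusted 0.0231). Slc4a1 fell against Atp6v1b1, which both cell types use, by 1.58 (exact permutation test, p = 0.00794). The ratio of Slc26a4 to Atp6v1b1 had a difference of -0.09 (exact permutation test, p = 0.508), which did not pass.

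**Figure D4:**
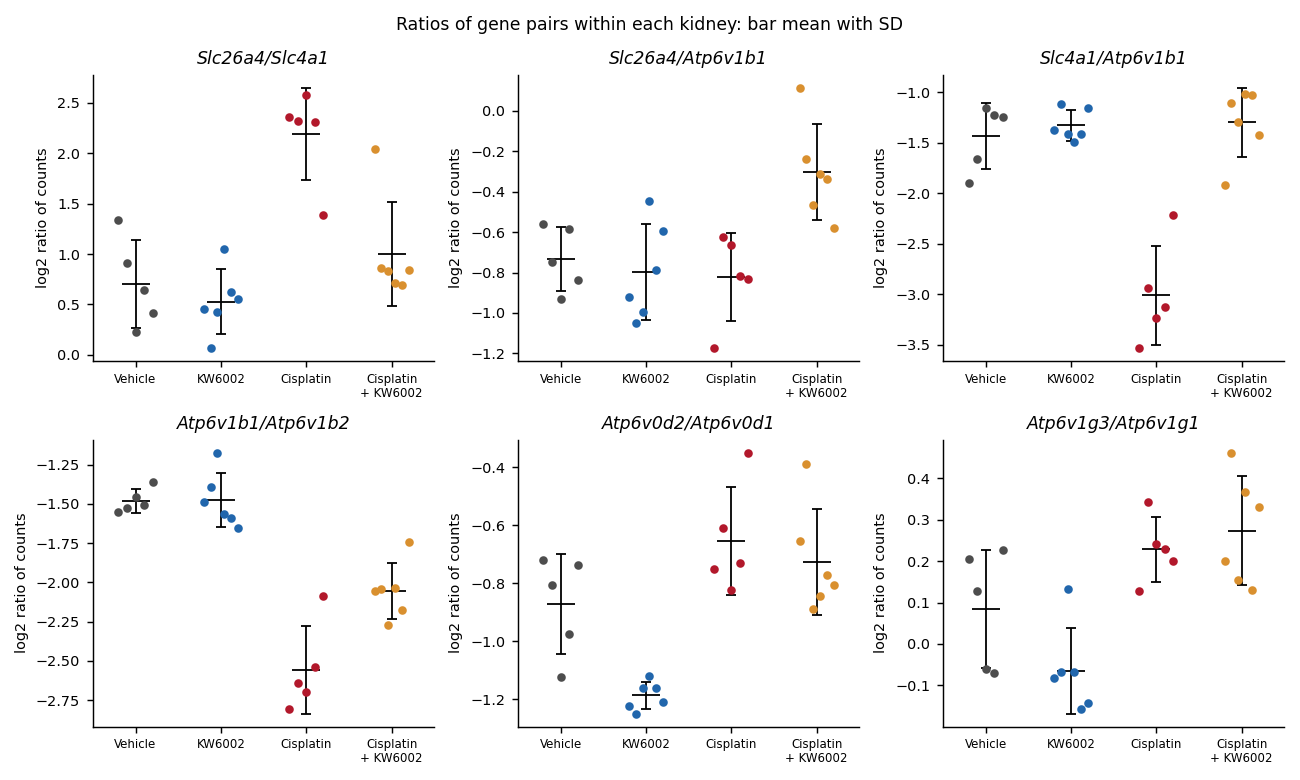
Log2 ratio of counts within each kidney (y axis) for 6 gene pairs by group, with the mean and SD as bars. Slc26a4/Slc4a1 is highest and Slc4a1/Atp6v1b1 lowest in cisplatin kidneys, while Atp6v0d2/Atp6v0d1 is lowest in KW6002 kidneys.

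Atp4a encodes the catalytic subunit of the gastric proton-potassium ATPase, which intercalated cells also use. It had the largest fall of the 10 genes, from 47.7, 42.1, 50.6, 46.4 and 49.6 CPM in vehicle kidneys to 3.12, 4.92, 4.13, 4.82 and 5.47 CPM in cisplatin kidneys. The groups lay far apart, the cisplatin mean was 9.49% of the vehicle mean, and the log2 fold change was -3.40 ± 0.146 (adjusted p = 4.69e-15). Gastric gland markers were at or near 0 in every group. Of 12 such genes 9 were in the table, they summed to between 0.170 and 0.810 CPM per kidney, and Atp4b, the partner subunit of Atp4a in the stomach, had at most 3 counts in every kidney. Atp12a, the colonic proton-potassium ATPase gene, was low at 0.729 ± 0.640 CPM in vehicle and 1.51 ± 0.315 CPM in cisplatin kidneys, with overlap between the groups (log2 fold change 1.08, edgeR adjusted p = 0.0275).

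Rhcg, the ammonia channel, fell from between 116 and 135 CPM in vehicle to between 26.7 and 42.9 CPM in cisplatin kidneys (log2 fold change -1.96 ± 0.0976, adjusted p = 4.87e-14). Its paralog Rhbg, the basolateral ammonia channel, went from 7.23 ± 0.853 to 4.25 ± 0.770 CPM (log2 fold change -0.77). These are lowered by different amounts, but the difference between the paralogs was not tested.

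The transcription factor genes differed from each other as well. Foxi1 measured 37.2, 48.2, 35.3, 38.6 and 37.9 CPM in vehicle kidneys and 32.6, 35.3, 31.6, 31.3 and 35.3 CPM in cisplatin kidneys. The groups touched at their edges, with vehicle replicate 2 standing above all others. The log2 fold change was -0.25, with a 95% interval from -0.45 to -0.04 (adjusted p = 0.0296), and it was -0.17 without vehicle replicate 2 (adjusted p = 0.120) and -0.21 among mice numbered in the 500s (adjusted p = 0.0747). The call was also lost without cisplatin replicate 1, 3 or 4 (edgeR adjusted p = 0.0530, 0.0633 and 0.0659), and with scaling by library size the value was -0.03 (adjusted p = 0.778). Hmx2, a homeobox gene best known from inner ear development, fell from between 8.03 and 14.3 CPM to between 2.37 and 3.88 CPM without overlap (log2 fold change -2.06 ± 0.185, adjusted p = 1.10e-09). Its neighbour and paralog Hmx3 had at most 17 counts in any kidney and was not tested.

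Further genes known from intercalated cells were listed apart from the 10. Of 22 genes 21 could be tested, and cisplatin lowered 11 and raised 6, with a median log2 fold change of -0.42. Insrr, which encodes an alkali-sensing receptor of the insulin receptor family, went from 57.0 ± 5.10 to 7.52 ± 2.43 CPM (log2 fold change -2.92). Genes that fell by more than 1 on the log2 scale included Oxgr1, the oxoglutarate receptor (-1.36), Car12, a carbonic anhydrase (-1.33), Bsnd, which is also used in the thick ascending limb (-1.31), and Hepacam2 (-1.17). Car2, the cytosolic carbonic anhydrase, did not pass (log2 fold change 0.09). Other genes of this list had higher means in cisplatin than in vehicle kidneys. Tfcp2l1 had means of 587 CPM in vehicle and 720 CPM in cisplatin kidneys, and Adgrf5 of 148 and 202 CPM. Dmrt2 had means of 5.42 and 8.08 CPM, and P2ry14 of 2.65 and 4.28 CPM.

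Markers of neighbouring tubule cells moved in the same comparison. Principal cells, the other cell type of the collecting duct, had 3 of 10 markers higher and 2 lower, with a median log2 fold change of -0.07. Their most abundant markers were Aqp2, at 161 CPM in vehicle and 427 CPM in cisplatin kidneys, and Aqp3, at 152 and 137 CPM. All 8 distal convoluted and connecting tubule markers fell (median -2.37), led by Slc12a3 at 1597 and 66.1 CPM and Klk1 at 1225 and 253 CPM. Of 8 thick ascending limb markers 7 fell (median -1.60), with Umod at 4534 and 1575 CPM and Egf at 2538 and 75.9 CPM, and all 12 proximal tubule markers fell (median -3.17), with Slc34a1 at 7585 and 231 CPM and Lrp2 at 3637 and 575 CPM. The part of these shifts in the intercalated cell gene levels was not tested.

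The next question was whether KW6002 changed these genes in mice that received cisplatin. Addition of KW6002 raised 8 of the 10 genes relative to cisplatin alone, and none fell, while 28.6% of all tested genes were higher and 27.2% lower. The median log2 fold change was 0.84 over the 10 genes and 0.01 over all genes. For 7 genes all cotreated kidneys lay above all cisplatin kidneys, as did 19.3% of all tested genes (18.5% lay below), and Atp6v0d2 and Foxi1 did not pass. This comparison shares its cisplatin kidneys with the one above.

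Slc4a1 had the largest rise, with a lowest value of 23.6, a median of 38.5 and a highest value of 43.2 CPM in cotreated kidneys against at most 16.4 CPM with cisplatin alone. The log2 fold change was 2.12 ± 0.237 (adjusted p = 1.15e-07), and 2.51 without cisplatin replicate 5. Atp4a had a lowest value of 12.6, a median of 14.2 and a highest value of 23.4 CPM in cotreated kidneys. Replicate 6 gave the highest of these, while the other 5 cotreated kidneys lay between 12.6 and 15.3 CPM. The log2 fold change was 1.80 ± 0.140 (adjusted p = 5.21e-10) with replicate 6 and 1.64 without it (adjusted p = 4.54e-11). Gastric gland markers in the cotreated group summed to at most 0.533 CPM.

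Hmx2 rose to a median of 6.47 CPM (log2 fold change 1.22 ± 0.179, adjusted p = 5.10e-06), and Rhcg to 65.3 CPM (1.05 ± 0.0928, adjusted p = 3.49e-09). Slc26a4 rose to a median of 68.9 CPM, from 55.4 in the lowest to 96.9 in the highest cotreated kidney (1.03 ± 0.151, adjusted p = 5.23e-06). Slc4a9 rose to a median of 88.0 CPM (0.64 ± 0.116, adjusted p = 6.78e-05). These 4 genes kept the cotreated above the cisplatin kidneys in every pair of mice.

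Among the proton pump genes, Atp6v1b1 had cotreated values from 76.5 to 101 CPM with a median of 88.5, just above the highest cisplatin kidney at 76.4 CPM. Its log2 fold change was 0.51 ± 0.0770 (adjusted p = 7.03e-06). Atp6v1g3 passed narrowly with overlapping groups, rising by 0.19 ± 0.0789 on the log2 scale (adjusted p = 0.0440). That call was lost in 6 of the alternative settings and without any 1 of 7 kidneys, with 0.13 (library size scaling) as the lowest value. Atp6v0d2 had a median of 54.1 CPM and a log2 fold change of 0.05 with a 95% interval from -0.09 to 0.19 (adjusted p = 0.578), and Foxi1 one of 0.13 with an interval from -0.06 to 0.33 (adjusted p = 0.232).

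Ratios within kidneys also differed between cotreated and cisplatin mice. Slc26a4 per Slc4a1 was lower by 1.19 on the log2 scale in cotreated than in cisplatin kidneys (difference -1.19, 2-sided exact permutation test, p = 0.00866, adjusted 0.0231). The groups overlapped, since cotreated replicate 1 had a ratio of 4.11 and cisplatin replicate 5 one of 2.62. Slc4a1 per Atp6v1b1 was higher by 1.71 and Slc26a4 per Atp6v1b1 by 0.52 (exact permutation test, p = 0.00433 for each, the smallest this design allows). Atp6v1b1 per Atp6v1b2 was higher by 0.50 with overlap between the groups (exact permutation test, p = 0.0130, adjusted 0.0312). With cisplatin replicate 1, 2, 3 or 4 left out, the adjusted values of this ratio and of Slc26a4 per Slc4a1 were 0.0686 and 0.0508, and the former was 0.0571 without cotreated replicate 1, 2, 4 or 6. The ratios of Atp6v0d2 and Atp6v1g3 to their paralogs differed by -0.07 and 0.05 and did not pass.

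Of the 20 other V-ATPase subunit genes, KW6002 raised 11 and lowered 5 relative to cisplatin alone (median log2 fold change 0.14). Atp6v1c2 rose (0.74) and Atp6v0a1 fell (-0.39). Of the 21 other intercalated cell genes, 9 rose and 3 fell (median 0.26). Genes that rose included Insrr (1.20), Hepacam2 (0.75), Car12 (0.35) and Oxgr1 (0.26), and the change of Bsnd was 0.27 without passing the test. Atp12a was lower in cotreated kidneys, at 0.169 ± 0.148 CPM (log2 fold change -3.11, with at most 15 counts per kidney), and Rhbg was lower as well (-0.41), whereas Slc4a2 was higher (0.30). Slc26a3, the paralog of Slc26a4, had at most 6 counts in any kidney and was not tested.

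Cotreated kidneys were then set against vehicle to see what difference remained. Of the 10 genes, 7 were lower and none higher, with 29.9% of all tested genes lower and 29.8% higher, and the median log2 fold change was -0.64. Atp4a remained lowest at 32.9% of the vehicle mean (log2 fold change -1.60 ± 0.125, adjusted p = 3.31e-10). Atp6v1b1 was at 52.6% (-0.93), Rhcg at 53.4% (-0.90), Hmx2 at 55.9% (-0.84) and Slc4a1 at 57.9% (-0.79), and these 5 genes lay below vehicle without overlap between groups (18.5% of all tested genes lay below and 18.9% above), although Slc4a1 (43.2 against 44.8 CPM) and Hmx2 (7.97 against 8.03 CPM) were nearly touching. The type B genes Slc26a4 at 71.2% (-0.49, adjusted p = 0.00652) and Slc4a9 at 71.1% (-0.49, adjusted p = 8.31e-04) were lower with overlap between the groups. Scaling by library size, which moved the median of all genes up by 0.16, gave 6 lower and 2 higher, the latter being Atp6v0d2 and Atp6v1g3. Among all tested genes that setting gave 3525 lower and 7394 higher.

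The levels of Foxi1 (92.4% of the vehicle mean), Atp6v0d2 (102%) and Atp6v1g3 (105%) did not pass, with log2 fold changes of -0.11, 0.03 and 0.07. In ratios within kidneys, Slc26a4 per Atp6v1b1 was higher than in vehicle by 0.43 on the log2 scale (2-sided exact permutation test, p = 0.00866), and Atp6v1b1 per Atp6v1b2 was lower (difference -0.57, exact permutation test, p = 0.00433). Slc4a1 per Atp6v1b1 differed by 0.14 (exact permutation test, p = 0.515). Of the other V-ATPase subunit genes 11 were lower and 1 higher, and of the other intercalated cell genes 10 were lower and 7 higher.

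**Figure D5:**
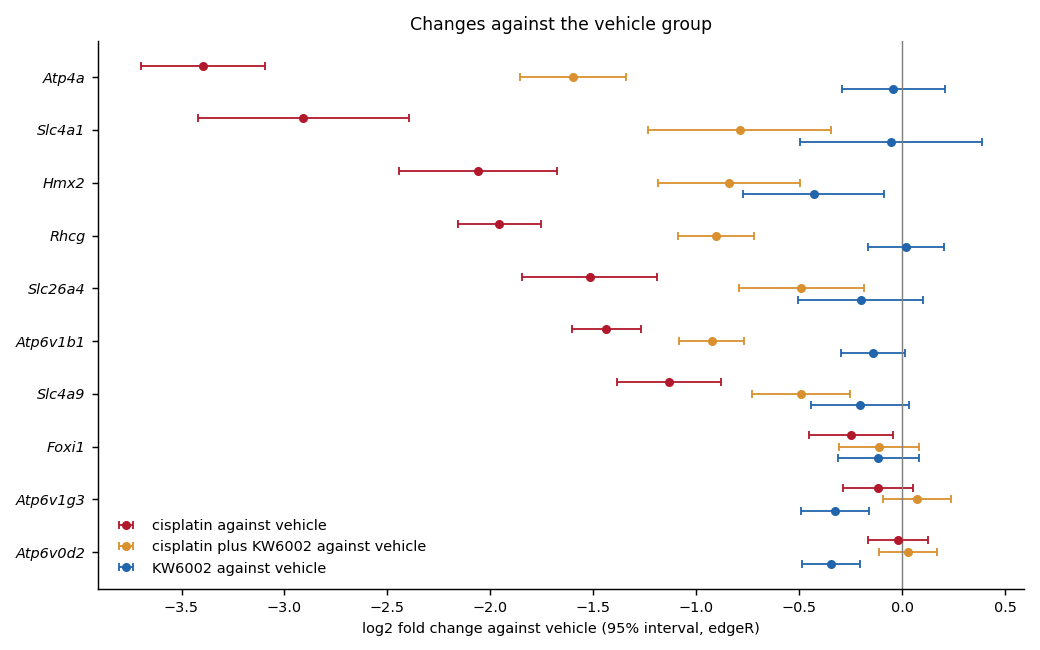
Log2 fold change against vehicle with 95% interval (x axis) of the 10 genes (y axis) in cisplatin, cotreated and KW6002 kidneys. For the upper 7 genes the cotreated value lies between the cisplatin value and 0, while for Atp6v0d2 and Atp6v1g3 the KW6002 value is the lowest, at -0.35 and -0.33.

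KW6002 without cisplatin gave no call among the 10 genes in edgeR at an adjusted p below 0.05. Over all genes 0.0175% were higher and 0.0% lower (3 and 0 genes, against 938 and 992 at an unadjusted p below 0.05 and 50 and 52 in DESeq2). Among the 10 genes, Atp6v0d2, Atp6v1g3 and Hmx2 had an unadjusted p below 0.05, and DESeq2 called the first pair. Atp6v0d2 had a lowest value of 40.1, a median of 43.5 and a highest value of 45.5 CPM in KW6002 kidneys, so that every KW6002 kidney was below every vehicle kidney, the lowest of which was at 45.8 CPM. The log2 fold change was -0.35 ± 0.0681 (edgeR adjusted p = 0.0776, DESeq2 adjusted p = 0.00322).

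Atp6v1g3 lay between 44.1 and 55.0 CPM in KW6002 kidneys, also below all vehicle kidneys (55.7 CPM or more), as were 0.992% of all tested genes (0.391% lay above), with a log2 fold change of -0.33 ± 0.0791 (edgeR adjusted p = 0.123, DESeq2 adjusted p = 0.0299). Within the mice numbered in the 300s, mean Atp6v0d2 was 55.5 CPM in vehicle and 42.5 CPM in KW6002 kidneys, and within the 500s it was 54.4 and 44.2 CPM. Mean Atp6v1g3 was 64.8 and 51.4 CPM within the 300s and 62.0 and 50.3 CPM within the 500s, so for both genes the vehicle mean was higher within either series. Without vehicle replicate 3, the lowest vehicle kidney for both, edgeR called Atp6v0d2 (-0.41, adjusted p = 0.00507) and Atp6v1g3 (-0.37, adjusted p = 0.0488). Macrophage and osteoclast markers summed to between 223 and 595 CPM in KW6002 kidneys, over much the same range as in vehicle, and 0 of 13 passed in edgeR.

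The ratio of Atp6v0d2 to Atp6v0d1 was lower with KW6002 than in vehicle (difference -0.31 on the log2 scale, 2-sided exact permutation test, p = 0.00866, adjusted 0.0231). The ratio of Atp6v1g3 to Atp6v1g1 differed by -0.15 and did not pass. Hmx2 had a log2 fold change of -0.43 (edgeR adjusted p = 0.332), and the remaining 7 genes lay between -0.20 and 0.02.

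Whether KW6002 acted differently with and without cisplatin was tested as an interaction, which draws on all 4 groups and so shares kidneys with every comparison above. For 9 of the 10 genes the effect of KW6002 was higher in cisplatin-treated than in other mice, and for none lower, against 22.8% and 19.9% of all genes, with a median of 0.94 on the log2 scale. Slc4a1 had the largest value (2.17 ± 0.315, edgeR adjusted p = 9.78e-06), followed by Atp4a (1.84), Hmx2 (1.65) and Slc26a4 (1.23). For Atp6v0d2 the value of 0.39 ± 0.0961 (adjusted p = 0.00220) combined 0.05 with cisplatin and -0.35 without it, and for Atp6v1g3 the value of 0.52 ± 0.112 (adjusted p = 7.56e-04) combined 0.19 and -0.33. Foxi1, at 0.25 (adjusted p = 0.136), was the gene that did not pass.

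Within groups, the 10 genes varied together to different degrees. Over 22 kidneys, deviations of log2 CPM from the group means had a median Pearson's r of 0.38 over the 45 pairs, and 18 pairs exceeded 0.5, while the median r of the 10 genes with all tested genes was 0.00380. These deviations share library, depth and scaling, and are given as a description. Atp6v1b1 and Rhcg (0.781), Slc26a4 and Hmx2 (0.745), Atp6v0d2 and Slc4a9 (0.722) and Slc4a1 and Rhcg (0.700) were closest, and Atp6v0d2 and Atp4a (-0.0254) the least alike. The genes outside the 10 whose deviations were most like those of Foxi1 over 17131 genes and 22 kidneys were Mcm10 (r = 0.843), Itch (0.781), 4930422C21Rik (0.775), Fbxo8 (0.775) and Cyp2j6 (0.773). They were picked as the highest of all these values, and their likeness to Foxi1 was not tested. Vehicle replicate 2, which stood out for Foxi1 at 48.2 CPM, enters each of these values.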

How the data were processed

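The authors extracted RNA from kidneys of 22 mice and sequenced TruSeq Stranded mRNA libraries as single 50-base reads. STAR 2.5.3a aligned these to mm10, and unique reads were assigned to Ensembl genes by HTSeq-count 0.6.1p1 in union mode. Whether strand was used in counting is not given in the sources used here. The deposited values are counts, whole numbers of reads per gene and library that the authors had not normalized. The table also has 66 unnamed columns without values. Symbols and positions were taken from GENCODE M21 (mm10), which named 32824 of 32858 genes, and the 34 genes without a symbol were kept.

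Groups were taken from the sample titles, which name separate replicates, and each library is 1 mouse. Genes were kept by filterByExpr (10 counts at the median library size in at least 5 libraries, 15 in all), which left 17131 genes with 99.9% of counts and removed 15727. All 22 libraries entered 1 fit in edgeR 4.0.16 (R 4.3.3) with TMM normalization, 1 mean per group and no covariate. Contrasts were tested by the quasi-likelihood F test, with Benjamini-Hochberg adjustment over all tested genes and a threshold of 0.05. The common dispersion was 0.0168. CPM used TMM-scaled library sizes. Ratios of gene pairs were taken per kidney as log2 of counts with 0.5 added and compared by 2-sided exact permutation tests, adjusted over 24 tests. Counting error is small at these depths, and 3 counts is the limit that a count of 0 allows.

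Other settings were relative log expression factors, library size scaling, no filter or 10 counts in every library, a fit of only the compared groups, the number series as a covariate or the 500s alone, the replicate number as a block, DESeq2 1.42.0, the study's threshold (0.01, and a log2 change beyond 1), a pseudocount of 1, and leaving out each library. The edgeR fit was tested on simulated counts. Named were all 10 genes, listed subunit and intercalated cell genes that passed with a log2 change beyond 1, paralogs, the 2 most abundant genes of each neighbouring tubule list, and the 5 genes most like Foxi1. Car2, Atp6v0a4, P2ry14, Dmrt2, Adgrf5 and Tfcp2l1 were named after their values were seen. The genes and lists were chosen with earlier results of these data known.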

Additional observations from a re-analysis of the deposited data

Results flagged for a closer look

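Among 40 combinations of gene and group, 4 had 1 kidney whose distance to its nearest neighbour was large for the range of its group, and chance alone flags about 1 in 20 groups. Atp4a in cotreated replicate 6 measured 23.4 CPM, above the 12.6 to 15.3 CPM of the other cotreated kidneys. Foxi1 in vehicle replicate 2 measured 48.2 CPM, the highest of all kidneys. Slc4a9 in cotreated replicate 2 measured 114 CPM, and Atp6v1g3 in cisplatin replicate 1 measured 50.6 CPM, the lowest of its group.

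The effect of KW6002 differed between cisplatin-treated and other mice for 9 genes by edgeR's interaction test, always as a higher effect with cisplatin. Over all tested genes, 22.8% had a higher and 19.9% a lower effect with cisplatin. On the log2 scale the difference was 2.17 for Slc4a1, 1.84 for Atp4a, 1.65 for Hmx2, 1.23 for Slc26a4, 1.03 for Rhcg, 0.85 for Slc4a9, 0.65 for Atp6v1b1, 0.52 for Atp6v1g3 and 0.39 for Atp6v0d2.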

How the results depend on the processing

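The number of the 10 genes past the threshold stayed within 1.5 times its value in most settings. Exceptions were the study's stricter threshold, which left 5 genes for KW6002 added to cisplatin, 1 (Atp4a) for cotreated kidneys against vehicle and 5 for the interaction. For KW6002 alone, 1 gene passed with the number series as a covariate (Atp6v0d2, adjusted p = 0.0337), 2 passed in DESeq2, and leaving out single kidneys gave 0 to 2. None of the 24 ratio tests passed among mice of the 500s alone (0 against 10). There the comparisons with vehicle keep 2 vehicle mice, too few for the exact test, while KW6002 added to cisplatin keeps all its kidneys and its 4 passing ratios moved to adjusted p = 0.0519 to 0.0779 through the adjustment over 24 tests alone. Leaving out single kidneys gave 8 to 10 ratios.

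Signs turned as follows. With library size scaling, Atp6v0d2 was 0.20 for cisplatin and -0.011 for KW6002 added to cisplatin, Atp6v1g3 was 0.10 for cisplatin, and Foxi1 was 0.043 for cotreated kidneys against vehicle. With only the 500s, KW6002 alone gave 0.049 for Slc4a9, 0.060 for Foxi1, and log2 ratios of 0.22 for Slc26a4/Slc4a1, 0.10 for Slc26a4/Atp6v1b1, -0.12 for Slc4a1/Atp6v1b1 and -0.17 for Atp6v1b1/Atp6v1b2, and cotreated kidneys gave -0.062 for Slc4a1/Atp6v1b1. Leaving out single kidneys, ranges that crossed 0 were -0.081 to 0.032 (Atp6v0d2, cisplatin), -0.032 to 0.080 (Atp6v0d2, cotreated against vehicle), -0.15 to 0.016 (Slc4a1, KW6002), -0.0066 to 0.049 (Rhcg, KW6002), -0.0047 to 0.18 (Slc4a1/Atp6v1b1, KW6002), -0.056 to 0.040 (Atp6v1b1/Atp6v1b2, KW6002) and -0.14 to 0.0028 (Atp6v0d2/Atp6v0d1, KW6002 added to cisplatin). The cause was not tested.

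Same-numbered kidneys correlated over 0.1 in 7 of 31 pairs (median 0.00846), of which 4 were among the 5 pairs of vehicle and KW6002 kidneys (from -0.15 to 0.40), so the numbers, not over 0.1 in every pair, were not taken to pair the kidneys. With 5 or 6 kidneys in a group, a kidney correlated best with its own number in 19 of 62 combinations of kidney and other group. With the replicate number as a block, 8, 7, 7, 0 and 9 genes passed in the 5 comparisons in the order of the report, the one lost being Atp6v1g3 for KW6002 added to cisplatin (0.16, adjusted p = 0.0965). That call was also lost with relative log expression factors (0.0532), library size scaling (0.156), no filter (0.0512), 10 counts in every library (0.0586) and DESeq2 (0.0650). For cotreated kidneys against vehicle, library size scaling gave -0.33 for Slc26a4 (adjusted p = 0.0517), 0.18 for Atp6v0d2 (0.0256) and 0.23 for Atp6v1g3 (0.0141).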
